A study of Homo sapiens with 4 samples.

Results

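The genes described here are the host genes of small nucleolar RNAs (snoRNAs) that carry an SNHG symbol, together with GAS5, ZFAS1, DANCR and EPB41L4A-AS1. They were chosen by symbol, with earlier results of these data known, and 32 of the 58037 genes in the table met the rule. RNA-Seq libraries were made from OCI-AML3, an established human acute myeloid leukemia line with NPM1 and DNMT3A each mutated on 1 allele and NRAS on both, 72 hours after transfection with a guide RNA and Cas9. The sgNPM1A guide targets the mutant allele (mtNPM1 KO), the sgNeg guide is the negative control, and both groups are transfected pools of the same line. The labels name alpha-MEM with serum as the medium, the study's methods name RPMI, and which was used for these libraries is not settled. There were 2 libraries in each group, 4 in all, and nothing in the sources used here ties a library to a separate culture beyond the words biological replicates, so the p-values measure the spread between these libraries. The comparison asks whether expression of these host genes changed when mtNPM1 was disrupted.

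SnoRNAs guide the chemical modification and the cleavage of ribosomal RNA in the nucleolus, the compartment in which NPM1, an abundant nucleolar phosphoprotein, normally resides. Box C/D snoRNAs direct ribose methylation, box H/ACA snoRNAs direct pseudouridylation, and the related scaRNAs act on spliceosomal RNAs in Cajal bodies. In human cells most of them lie in introns of a longer gene, are cut out of the spliced intron and are bound by their proteins during splicing. The exons of an SNHG gene make a spliced RNA with little coding capacity. Such RNAs often start with a run of pyrimidines (a 5′TOP start, as in the mRNAs of ribosomal proteins) and many are degraded by nonsense-mediated decay (NMD) when they are translated. The counts on the host genes follow this spliced RNA and say little about the snoRNAs themselves.

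According to RefSeq on GRCh38, 30 of the 32 genes contain at least 1 named snoRNA or scaRNA, 147 in all. SNHG14 holds 83 of them, GAS5 11, SNHG1 8, and SNHG12 and SNHG17 4 each, while SNHG27 and SNHG28 hold none that RefSeq names. All 32 are lncRNA genes in the annotation.

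The starts of the host genes are shown because the 5′TOP start is the sequence feature these genes are best known for. RefSeq promoters were at hand for 28 of the 32 genes. Each line gives 20 bases before and 30 bases from the annotated start, 5′ to 3′ on the strand of the gene (GRCh38.p14), with a run of a C followed by at least 4 letters that are each C or T in capitals where one begins at or near the start. The first 5 genes are those with higher counts in the sgNPM1A libraries, and the last 4 are the other tested genes with the run exactly at the start.
SNHG19 (chr16:2155329-2155378, minus strand): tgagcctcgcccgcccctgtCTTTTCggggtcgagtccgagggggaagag
DANCR (chr4:52712374-52712423, plus strand): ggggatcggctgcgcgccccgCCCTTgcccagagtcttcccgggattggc
SNHG4 (chr5:139274081-139274130, plus strand): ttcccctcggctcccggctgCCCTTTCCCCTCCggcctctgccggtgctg
SNHG3 (chr1:28505923-28505972, plus strand): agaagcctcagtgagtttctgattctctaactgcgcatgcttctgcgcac
SNHG10 (chr14:95534843-95534892, minus strand): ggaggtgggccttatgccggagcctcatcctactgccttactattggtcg
SNHG12 (chr1:28581844-28581893, minus strand): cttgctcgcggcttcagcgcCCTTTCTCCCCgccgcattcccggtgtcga
SNHG32 (chr6:31834896-31834945, plus strand): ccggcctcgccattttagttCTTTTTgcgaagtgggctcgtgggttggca
SNHG5 (chr6:85678704-85678753, minus strand): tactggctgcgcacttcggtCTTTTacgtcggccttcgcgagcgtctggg
ZFAS1 (chr20:49278622-49278671, plus strand): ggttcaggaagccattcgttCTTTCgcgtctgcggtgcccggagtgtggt

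The run began exactly at the annotated start, on the gene's own strand, in 7 of the 28 promoters (25%), and in 4.07% of the 35116 promoters in the RefSeq table. Among tested genes the share was 26.1% (6 of 23) for the host genes and 5.23% for the 15597 others. Within 10 bases of the start a run was present in 16 of 28 host genes (57.1%) and in 31.5% of all promoters. Of the 5 genes higher in the sgNPM1A libraries, SNHG19 and SNHG4 had it at the start and DANCR 1 base downstream, at position 2, and these letters were not found near the annotated start of SNHG3 or SNHG10. The E-box CACGTG, which reads the same on both strands and is bound by MYC and MAX among others, was in 2 of the 28 promoters (7.14%), SNHG7 and SNHG30, and in 7.26% of all promoters. These matches are descriptions of annotated letters and not mapped start sites. For ZFAS1 the start used, chr20:49278642, lies downstream of the start of the gene in RefSeq, 49278178.

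Total counts lay between 25069484 and 28276391 per library, so that 3 counts, the limit a count of 0 allows, equal 0.106 to 0.12 CPM (counts scaled to the library's total), which covers counting error only. All other CPM are taken after TMM scaling of these totals. NPM1 itself had 1317.4 and 1384.0 CPM in the sgNeg libraries and 1188.2 and 1130.7 CPM in the sgNPM1A libraries, a log2 fold-change of -0.22 (SE 0.07, adjusted p = 0.036, edgeR). Reads of the mutant and the normal allele are summed in this count. The list of myeloid markers summed to 1313.0 to 1336.2 CPM in the sgNeg libraries and to 3954.9 to 4680.5 CPM in the sgNPM1A libraries. Most of this rise was LYZ, with 270.3 and 214.9 CPM with sgNeg and 2640.0 and 3363.7 CPM with sgNPM1A. Of the 9 genes 8 were tested. With sgNPM1A 5 of these 8 (62.5%) were called higher (LYZ, ITGAM, MPO, ANPEP and SPI1), against 10.5% of all genes tested. PTPRC (log2 fold-change -0.05), CEBPA (0.04) and CD33 (0.06) were not called, and KIT had at most 2 counts. Markers of T, B, erythroid, megakaryocytic, epithelial and fibroblast cells summed to 284.7 to 303.8 CPM in every library, mostly CD4, 6 of the 15 had no counts and COL1A2 was lower. The part of the myeloid marker changes in the results below was not tested. In a pool of cells a change in the mix of cells and a change in RNA per cell cannot be told apart.

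The 32 host genes together took 46223 and 51207 counts in the sgNeg libraries and 58921 and 55390 in the sgNPM1A libraries, or 0.184%, 0.2%, 0.208% and 0.196% of all counts. As a share of counts the first sgNeg library was the lowest. The second lay between the sgNPM1A libraries, so by this share the groups overlapped. After TMM scaling the sums were 1816.5 and 1975.1 CPM with sgNeg and 2111.7 and 1992.8 CPM with sgNPM1A. On that scale both sgNPM1A libraries lay above both sgNeg libraries, the second sgNPM1A library by a small margin only. A low-count filter left 27 of the 32 for testing. The other 5 were SNHG31, with 2 to 7 counts in a library, SNHG22, with 0 to 5, SNHG14, with 0 to 1, and SNHG27 and SNHG18, which had no counts in any library. SNHG14, the long imprinted transcript of the Prader-Willi region that carries the SNORD115 and SNORD116 clusters, was thus at the limit of detection.

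Of the 27 tested host genes 5 were called higher in the sgNPM1A libraries (18.5%, against 10.5% of the 15718 genes tested) and 0 were called lower (against 10.3%), with edgeR's quasi-likelihood test. A call required a p adjusted by Benjamini-Hochberg below 0.05 and a log2 fold-change of at least 0.32 in size, that is 25% higher or 20% lower. Without the adjustment, 6 were higher and 0 lower at p below 0.05 and the same size of change (against 13.0% and 12.7% of all genes tested). DESeq2 called 3 higher and 0 lower, against 7.44% and 7.14% of the genes it tested, and limma 5 and 0, against 10.5% and 10.2%. The 5 were SNHG19, DANCR, SNHG4, SNHG3 and SNHG10. They host snoRNAs of both classes and a scaRNA.

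SNHG19, a short gene next to TRAF7 that hosts the box C/D snoRNA SNORD60, changed the most. It had 239 and 251 counts in the sgNeg libraries and 768 and 733 counts in the sgNPM1A libraries, equal to 9.39, 9.68, 27.5 and 26.4 CPM. Replicates differed by little and the groups were far apart. The log2 fold-change was 1.50 (SE 0.10, adjusted p = 1.38e-06, edgeR), a fold of 2.82, which placed it at rank 244 of the 15718 tested genes in order of log2 fold-change. It was the only one of the 27 with a fold of at least 2.

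DANCR, a host of the H/ACA snoRNA SNORA26 and known as a lncRNA that restrains differentiation of epidermal progenitors, had 105.5 and 119.6 CPM with sgNeg and 163.5 and 156.5 CPM with sgNPM1A. Both sgNPM1A libraries were above both sgNeg libraries. The log2 fold-change was 0.51 (SE 0.08, adjusted p = 0.000528, edgeR).

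SNHG3, which hosts the U17 snoRNAs SNORA73A and SNORA73B that act in cleavage of the ribosomal RNA precursor, had 126.3 and 131.6 CPM with sgNeg and 182.0 and 174.7 CPM with sgNPM1A. The gap between the groups was larger than that within either. The log2 fold-change was 0.47 (SE 0.07, adjusted p = 0.000346, edgeR).

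SNHG4, the host of the H/ACA snoRNA SNORA74A, had 294 and 227 counts with sgNeg and 390 and 403 counts with sgNPM1A, or 11.6, 8.76, 14 and 14.5 CPM. The groups did not overlap, but the sgNeg libraries were spread widely (10.2 ± 1.98 CPM, SD, n = 2). The log2 fold-change was 0.49 (SE 0.14, adjusted p = 0.0224, edgeR). The call was lost without the second sgNeg library (log2 fold-change 0.30, adjusted p = 0.107, edgeR), without the second sgNPM1A library (0.46, adjusted p = 0.0525, edgeR) and with DESeq2 (adjusted p = 0.0584).

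SNHG10, the host of SCARNA13, had 176 and 204 counts with sgNeg and 282 and 286 with sgNPM1A, or 6.92, 7.87, 10.1 and 10.3 CPM. It was the least abundant of the 5, and its groups did not overlap. The log2 fold-change was 0.46 (SE 0.13, adjusted p = 0.021, edgeR). The call was lost without the first sgNeg library (0.37, adjusted p = 0.0872, edgeR), without either sgNPM1A library (adjusted p = 0.0645 without the first and 0.0968 without the second, edgeR) and with DESeq2 (adjusted p = 0.107). SNHG19, DANCR and SNHG3 kept their calls in 12 of 12 alternative fits each at the same thresholds.

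**Figure D1:**
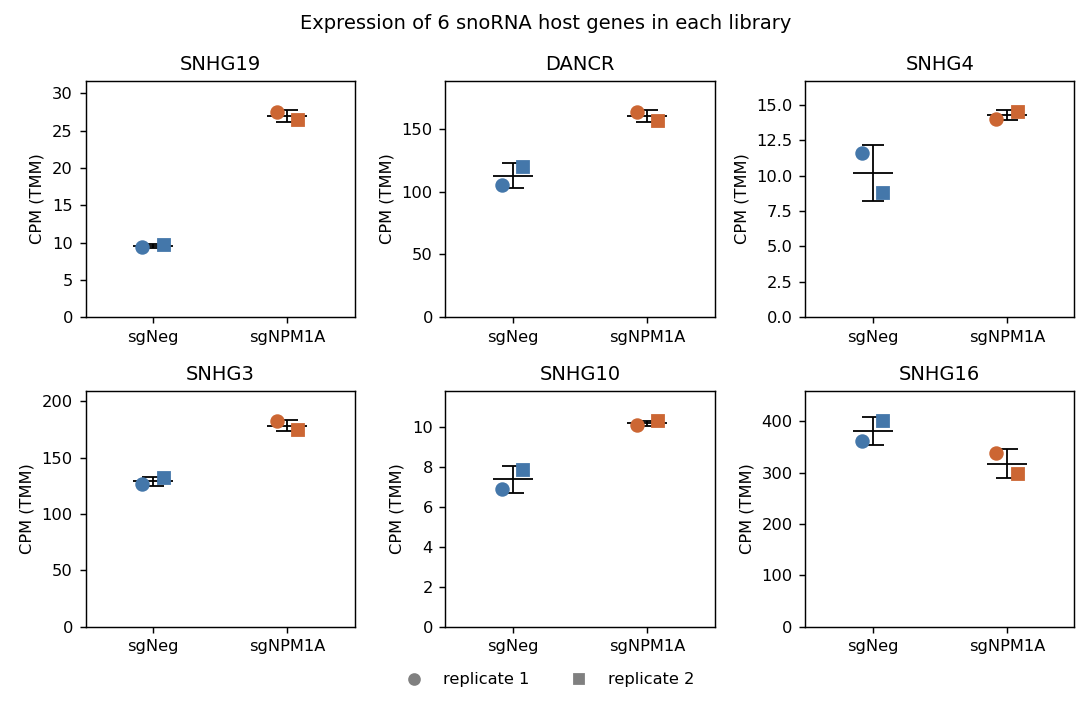
CPM (TMM-normalized, vertical axes from 0) of the 5 called host genes and of SNHG16 in each of the 4 libraries, with circles for replicate 1, squares for replicate 2, and the mean with SD (n = 2) in black. SNHG19 went from 9.54 to 26.9 CPM on average, the other 4 called genes by folds of 1.38 to 1.42, and SNHG16 was the abundant host gene with lower values in the sgNPM1A libraries.

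GAS5 and SNHG16 passed the adjusted p but not the threshold on the size of change. GAS5, the growth arrest-specific transcript with its 11 snoRNAs, had 148.7 and 166.1 CPM with sgNeg and 184.4 and 184.8 CPM with sgNPM1A. Both sgNPM1A libraries were higher, by a log2 fold-change of 0.23 (SE 0.07, adjusted p = 0.0349, edgeR), and the adjusted p was 0.0562 with limma and 0.101 with the replicate number as a block. On leaving out 1 library it was above 0.05 in each fit but that without the second sgNeg library, with 0.15 as the lowest log2 fold-change (adjusted p = 0.114, edgeR), without the first sgNeg library.

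SNHG16, which hosts the SNORD1 family of box C/D snoRNAs, had 361.9 and 400.0 CPM with sgNeg and 337.8 and 298.1 CPM with sgNPM1A. It was the only one of the 27 whose sgNPM1A libraries both lay below both sgNeg libraries. The log2 fold-change was -0.26 (SE 0.08, adjusted p = 0.0325, edgeR), with an adjusted p of 0.0577 with the replicate number as a block. It passed the size threshold as well without the first sgNeg library (log2 fold-change -0.33) or without the first sgNPM1A library (-0.35). Without the second sgNeg library it was -0.19 (adjusted p = 0.137, edgeR) and without the second sgNPM1A library -0.17 (adjusted p = 0.435, edgeR), so the adjusted p was lost in both.

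The other 20 tested host genes did not pass the adjusted p. Of these, SNHG30, host of SNORD7, had the largest log2 fold-change, 0.39 (SE 0.14, adjusted p = 0.0682, edgeR), from 7.35 and 9.72 CPM to 11.6 and 10.9 CPM. SNHG28 and SNHG9 were at 0.28 each, the first resting on 16 to 34 counts in a library. SNHG5 was at 0.27, and SNHG6 and SNHG25 at 0.26 each. Further log2 fold-changes were 0.19 for SNHG8, 0.14 for SNHG20 and for SNHG21, 0.12 for SNHG12, 0.10 for SNHG1, 0.09 for SNHG32 and 0.08 for ZFAS1. SNHG26 was at 0.07, SNHG17 at 0.06 and SNHG29 at 0.01. The negative ones were SNHG15 at -0.03, SNHG11 at -0.08, SNHG7 at -0.12 and EPB41L4A-AS1 at -0.18. The groups overlapped in 11 of these 20.

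Among the hosts that were not called, the sgNPM1A libraries lay above the sgNeg libraries by small margins in SNHG6, SNHG25, SNHG20, SNHG12, SNHG32 and SNHG17 as well. SNHG6, host of SNORD87, had 70.7 and 83 CPM with sgNeg and 97.4 and 87.1 CPM with sgNPM1A (adjusted p = 0.0532, edgeR). SNHG12, with the 4 RNAs SNORA16A, SNORA44, SNORA61 and SNORD99, had 39.9 and 38.2 CPM with sgNeg and 42.7 and 42 CPM with sgNPM1A (adjusted p = 0.317, edgeR). SNHG32, host of SNORD48 and SNORD52, had 72.8 and 80.1 CPM with sgNeg and 81 and 81.4 CPM with sgNPM1A (adjusted p = 0.436, edgeR). In SNHG32 the gap between the groups was smaller than the gap between the sgNeg libraries.

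Several other hosts overlapped between the groups. SNHG8, host of SNORA24, had 77.5 and 97.4 CPM with sgNeg and 104.3 and 95.2 CPM with sgNPM1A, the first sgNeg library being the low one. SNHG7, host of SNORA17A and SNORA17B, had 103.4 and 125.6 CPM with sgNeg and 109.9 and 100.2 CPM with sgNPM1A, the second sgNeg library being the high one. ZFAS1, named for its place antisense to the start of ZNFX1 and host of SNORD12, SNORD12B and SNORD12C, had 19.1 and 22.9 CPM with sgNeg and 24 and 20.5 CPM with sgNPM1A. EPB41L4A-AS1, host of SNORA13, had 26.7 and 30.9 CPM with sgNeg and 27.8 and 23 CPM with sgNPM1A. In SNHG8, SNHG7, ZFAS1 and EPB41L4A-AS1 the difference between the group means was smaller than the gap between the sgNeg libraries.

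Among the 27, 22 log2 fold-changes were positive and 5 negative, and their median was 0.14 (quartiles 0.06 and 0.28). Over all genes tested the median was 0.00, over the 1862 other lncRNA genes 0.09, with 9.99% called higher and 6.34% lower, and over protein-coding genes -0.01. The 22 that were not called had a median of 0.11. Both sgNPM1A libraries lay above both sgNeg libraries in 15 of the 27 (55.6%, against 31.4% of all genes tested), both lay below in 1 (against 31.7%), and the groups overlapped in 11.

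The spread between the sgNeg libraries was as large as this median. In the second sgNeg library 21 of the 27 host genes were above the first, with a median log2 ratio of 0.14, while the median over all genes was 0.00. In the sgNPM1A libraries the second was above the first in 11 of 27, with a median of -0.06. The host genes thus mostly differed in the same direction between the control replicates. This was not particular to them. Some ribosomal protein genes that hold snoRNAs did so too, such as RPL12 (1580.2 and 2022.7 CPM with sgNeg) and RPL13A (2058.9 and 2502.6 CPM). Others did not, such as RPL17 (8.76 and 8.02 CPM), and no count was made over such genes. Without the second sgNeg library the median of the 27 was 0.22 and 8 were called higher and 0 lower (against 9.53% and 9.51% of all genes in that fit), SNHG30, SNHG5, SNHG6 and SNHG8 among them and SNHG4 not. Without the first it was 0.10 and 4 were called higher and 1 lower, SNHG16 (against 8.88% and 8.57%).

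**Figure D2:**
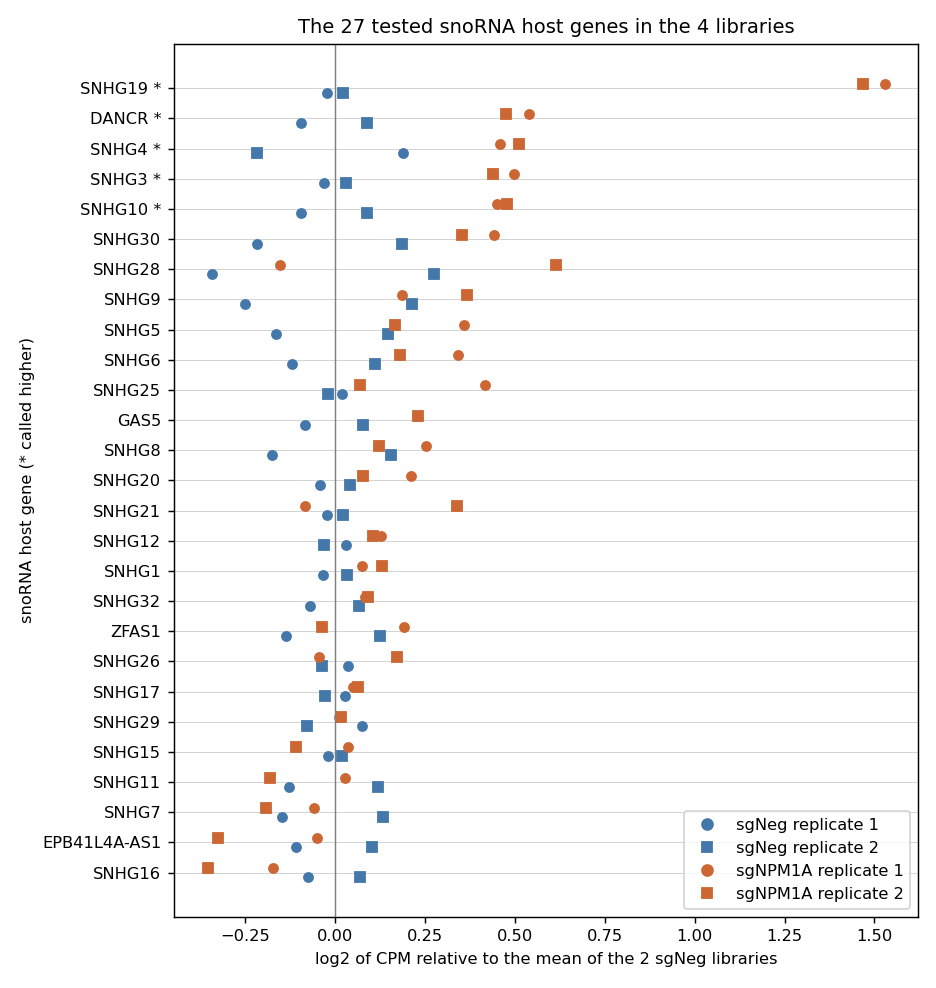
log2 of the CPM of each library relative to the mean of the 2 sgNeg libraries (horizontal axis) for the 27 tested host genes in order of log2 fold-change, with sgNeg in blue, sgNPM1A in orange, circles for replicate 1, squares for replicate 2 and an asterisk for genes called higher. SNHG19 stands apart at the top, the groups overlap in 11 genes, and in 21 of the 27 the blue square lies to the right of the blue circle.

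Per kilobase of the canonical transcript, the most abundant host genes on average over the 4 libraries were SNHG16 with 701.7 CPM per kb, SNHG29 with 580.8, GAS5 with 222.7, SNHG5 with 128.7 and SNHG1 with 83.8. This order depended on the length used. With the union of all annotated exons SNHG16 was still first, with 60.5 CPM per kb, and SNHG32 and SNHG3 came next. SNHG16 and GAS5 are described above.

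SNHG29, host of SNORD49A, SNORD49B and SNORD65, had 269.5 and 242.5 CPM with sgNeg and 258.0 and 259.2 CPM with sgNPM1A. The sgNPM1A values lay between those of sgNeg. SNHG5, host of SNORD50A and SNORD50B, had 137.1 and 170.4 CPM with sgNeg and 197.0 and 172.7 CPM with sgNPM1A, so the groups were apart by a small margin only (adjusted p = 0.0736, edgeR). SNHG1, whose 8 snoRNAs include SNORD22, had 91.7 and 96.1 CPM with sgNeg and 98.9 and 102.8 CPM with sgNPM1A. Its groups did not overlap, and the log2 fold-change was 0.10 (SE 0.07, adjusted p = 0.312, edgeR). Of these 5 most abundant none was called, whereas SNHG10 was called at rank 25 of 32, but with the exon union SNHG3, at rank 3, was among the most abundant.

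Many SNHG genes share exons or a promoter with another gene, and the strand setting of the counting is not given in the sources used here. In GENCODE v44, 18 of the 27 tested host genes overlap exons of another gene in the table. The share of the 50-base words of a host gene's transcripts that also occur in transcripts of other genes was 5.58% for SNHG19 (those of SNORD60 itself), 5.55% for SNHG3, 7.06% for SNHG10, 14.7% for DANCR and 17.2% for SNHG4. It was highest for SNHG28 with 77.9%.

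SNHG19 and TRAF7, a ubiquitin ligase gene, run in opposite directions from starts 293 bases apart. TRAF7 had 163.1 and 138.7 CPM with sgNeg and 140.1 and 154.7 CPM with sgNPM1A, and the log2 fold-change was -0.03 (SE 0.09, adjusted p = 0.812, edgeR). Its groups overlapped, unlike those of SNHG19.

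SNHG3 and RCC1, which encodes the nucleotide exchange factor of the GTPase RAN, lie on the same strand and share exons. RCC1 had 233.2 and 218.5 CPM with sgNeg and 202.8 and 202.2 CPM with sgNPM1A, and the log2 fold-change was -0.16 (SE 0.07, adjusted p = 0.101, edgeR). The estimate was thus opposite in sign to that of SNHG3, 0.47.

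At SNHG4 the neighbours had positive log2 fold-changes too. MATR3, the gene of the nuclear matrix protein matrin, overlaps it on the same strand, and the MATR3 row that does so went from 4.83 and 4.98 CPM to 8.17 and 7.23 CPM (log2 fold-change 0.65, SE 0.14, adjusted p = 0.00653, edgeR). MATR3 has 2 rows in the table, and the other had 9 to 20 counts in a library. The sources used here do not say how reads on exons shared by 2 genes were counted. The values of SNHG4 and MATR3, SNHG10 and GLRX5, and SNHG3 and RCC1 may therefore cover only part of each gene's reads, which was not tested. SIL1, an endoplasmic reticulum co-chaperone gene on the opposite strand, was higher by 0.30 in log2 units with an edgeR adjusted p of 0.0461, short of the size threshold.

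SNHG10 overlaps exons of GLRX5, a mitochondrial glutaredoxin of iron-sulfur cluster synthesis on the opposite strand. GLRX5 had 72.8 and 69.4 CPM with sgNeg and 86.4 and 92 CPM with sgNPM1A and was called higher (log2 fold-change 0.33, SE 0.07, adjusted p = 0.00677, edgeR). Without the strand of the reads, those from SNHG10 and GLRX5 in the shared stretch cannot be told apart, nor can those of SNHG4 and SIL1. The genes that overlap DANCR (ENSG00000248375, ERVMER34-1 and LINC01618) were all below 1 CPM.

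Some snoRNA genes have rows of their own. Outside SNHG14, 28 snoRNAs inside 20 of the host genes summed to 371 and 394 counts with sgNeg and 486 and 419 with sgNPM1A, and the 72 in SNHG14 to 0, 0, 0 and 2. SNORD104, in SNHG25, took the largest part, with 153, 173, 241 and 169 counts. SNORA73B, in SNHG3, had 69 and 66 counts with sgNeg and 91 and 82 with sgNPM1A. SNORD60, inside SNHG19, had no counts in any library. Reads on a snoRNA row can also come from unspliced host RNA, so no change in the snoRNAs is read from these counts.

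The factors that make and turn over these RNAs were read from lists. Of 22 factors that build or assemble snoRNPs (among them the methyltransferase fibrillarin, FBL, and the pseudouridine synthase dyskerin, DKC1), 0 were called in either direction by edgeR, DESeq2 or limma. Over all genes tested, edgeR called 10.5% higher and 10.3% lower. In the list 6 had an unadjusted p under 0.05 but none of those passed the size threshold. Both limits were passed by 13.0% (higher) and 12.7% (lower) of all genes tested. The median log2 fold-change of the list was 0.00. TCOF1, the nucleolar protein treacle, was the 1 gene with an adjusted p under 0.05 (log2 fold-change -0.22, adjusted p = 0.0246, edgeR). Of 21 NMD factors 0 were called by edgeR, DESeq2 or limma, 4 had an unadjusted p under 0.05 but none of those passed the size threshold, and the median was -0.01.

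Of 16 translation genes with a 5′TOP start, 15 were tested and EEF1G, which nearly all cells use, was listed at 0 in every library, so a value in this table need not be the gene's full level. By edgeR and DESeq2 0 were called, by limma 1 (RACK1), 2 had an unadjusted p under 0.05 with edgeR, and the median was -0.01. In the edgeR fit RACK1 had a log2 fold-change of only -0.13 (adjusted p = 0.201, edgeR). VIM, the intermediate filament vimentin, was at -0.24 with an edgeR adjusted p of 0.0449. The medians of these 3 lists were thus near 0, while the SNHG genes had 0.14. The share of all genes with an unadjusted p under 0.05 alone was not taken, so those counts have no background here.

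Another 263 genes of the table, most of them protein-coding, contain a snoRNA named by RefSeq. Of these, 222 were tested, 14 were called higher (6.31%) and 20 lower (9.01%), and the median log2 fold-change was -0.02. Those with the smallest adjusted p (edgeR) were CD44, a hyaluronan receptor, with -0.71 (adjusted p = 1.13e-05), UTRN, the gene of utrophin, with -0.86 (5.47e-05), TNS1, the gene of tensin, with 0.98 (5.67e-05), and SLC25A3, the mitochondrial phosphate carrier, with 0.45 (0.000457). The list was made by position alone, so it also holds genes that overlap an SNHG gene, such as MATR3 (over SNHG4, called higher) and RCC1 (over SNHG3). DKC1, NOP56 and NOP58 were also in the snoRNP list, and EEF1B2, EEF2, TPT1 and RACK1 in the 5′TOP list. Whether the SNHG genes differed from these 263 genes was not tested.

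**Figure D3:**
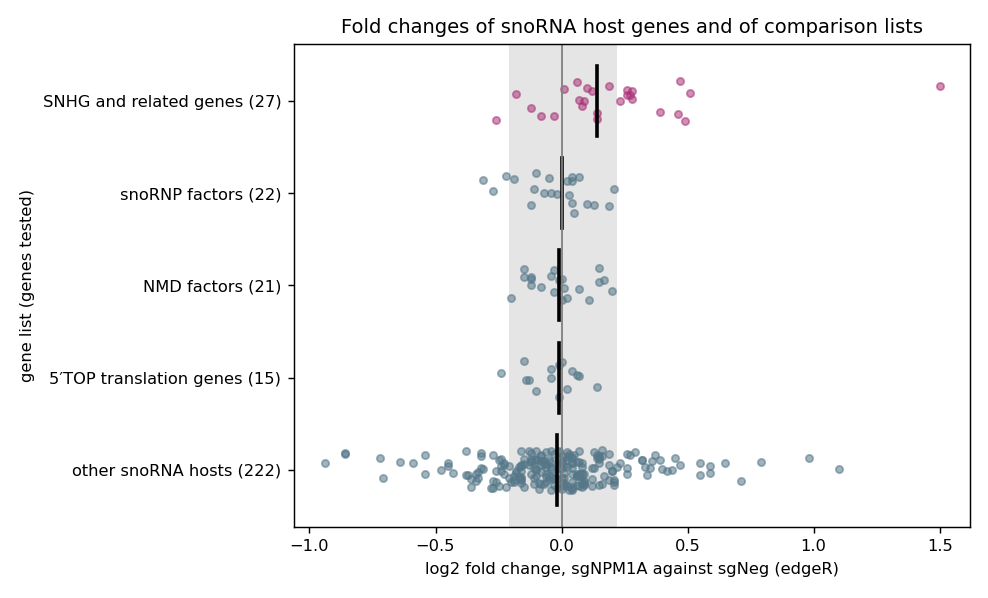
log2 fold-change with sgNPM1A against sgNeg (horizontal axis) of each tested gene in 5 lists, named with their number of genes on the vertical axis, with the list's median as a black bar. The grey band is the interquartile range of all 15718 tested genes and the grey line their median of 0.00; the SNHG genes have a median of 0.14 and 1 gene, SNHG19, at 1.50, and the snoRNP, NMD and 5′TOP lists stay between -0.31 and 0.21.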

How the data were processed

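Per the labels, total RNA of OCI-AML3 cells was treated with DNase I. STAR was the aligner the authors used, on the hg38 genome, and their deposited table holds raw read counts, a row for each Ensembl gene and a column for each of the 4 libraries; the counting program, its strand setting and the annotation release are not given in the sources used here. The table was used as deposited. Symbols were found by identifier for 55646 of 58037 rows.

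edgeR 4.0.16 (R 4.3.3) was run on the whole table: filterByExpr (minimum count 10, 15718 genes kept), TMM, robust dispersions and the two-sided quasi-likelihood F test. Calls needed a p, adjusted by Benjamini-Hochberg, below 0.05 and a log2 fold-change of at least 0.32 in size, the thresholds of the study. CPM are TMM-normalized, without a prior count. The SE is the log2 fold-change divided by the square root of F. Alternatives were DESeq2 1.42.0, limma-trend 3.58.1 on quantile-normalized values, 3 other scalings, 2 other filters, other fold thresholds, the replicate block and leaving out each library; scripts were tested on simulated data.

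The members and lists were chosen with earlier results of these data known, so they give no independent support. Every tested member is named, with values per library for called members and the 5 most abundant per kilobase; listed genes that were not called, SNHG30, RACK1 and EEF1G were named after their values were seen. Positions and promoters are RefSeq's on GRCh38.p14. Containment of the snoRNAs named by RefSeq was by position alone, because that table gives no strand. The snoRNAs with rows of their own were placed in host genes by GENCODE v44, on the same strand only. Overlaps, strands, lengths and shared words come from GENCODE v44 lifted to GRCh37, of which no coordinate is printed.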

Additional observations from a re-analysis of the deposited data

How the results depend on the processing

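With 2 libraries a group, small changes of low-count members could not be detected, and the alternatives below rest on the same 4 libraries. Among the alternatives, the number of host genes called higher was 3 with DESeq2 (SNHG19, DANCR and SNHG3), 1 at a fold of at least 2 (SNHG19), 6 without the filter on low counts, 6 without a fold threshold and 5 with RLE size factors, library size only, the upper quartile, at least 10 counts in every sample and limma. The number called lower was 0 in each of these except without a fold threshold, where it was 1 (SNHG16). Over all genes, 1787 were called higher and 1849 lower without the filter, 1655 and 1612 with RLE, and 1433 and 1947 with library size only. The upper quartile gave 1555 and 1657, at least 10 counts in every sample 1552 and 1497, and the main fit 1653 and 1619. The fits without a fold threshold and at a fold of at least 2 have no such count here. Leaving out 1 library gave 4 to 8 called higher, 0 to 1 called lower and a median of 0.10 to 0.22; the highest count and median came without sgNeg replicate 2, and SNHG16 was called lower without sgNeg replicate 1 and without sgNPM1A replicate 1. In these fits the lone library was assumed to vary like the other group, so their counts of calls rest on that assumption. For the fits without an sgNPM1A library no count over all genes is given here, so their counts of called host genes have no background. The median was 0.10 with library size only, which moved the median of all genes to -0.04.

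With the replicate number as a block, 5 host genes were called higher, the same 5, and 0 lower, with a median of 0.14. Over all genes this fit called 1637 higher and 1604 lower. The labels do not say that numbers mark a shared batch, and deviations of same-numbered libraries correlated at -0.13 over all genes tested and at -0.523 over the 8854 genes above 10 CPM, where 20 of the 27 tested host genes lie, so same-numbered libraries did not deviate together and were left unpaired. A crossed pairing, added after seeing the data, gave 6 higher and 0 lower, against 1955 and 1918 over all genes.

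Signs of small changes were not stable. SNHG29 had a log2 fold-change of -0.03 with library size only and -0.01 with limma, against 0.01. On leaving out 1 library the log2 fold-change ranged from -0.15 to 0.62 for SNHG28, from -0.08 to 0.34 for SNHG21, from -0.04 to 0.22 for ZFAS1, from -0.04 to 0.18 for SNHG26, from -0.06 to 0.09 for SNHG29, from -0.10 to 0.04 for SNHG15, from -0.20 to 0.06 for SNHG11 and from -0.26 to 0.02 for SNHG7. The cause was not tested.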

Other observations

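Neighbours of host genes that were not called were read after their values had been seen. SLC3A2, the heavy chain of amino acid transporters, starts 51 bases from SNHG1 on the other strand and had 190.3 and 199.6 CPM with sgNeg and 162.8 and 166.7 CPM with sgNPM1A, and the log2 fold-change was -0.24 (SE 0.06, adjusted p = 0.0175, edgeR), while SNHG1 had 0.10. ZNFX1, whose start lies 248 bases from that of ZFAS1, had 76.6 and 66.9 CPM with sgNeg and 55.4 and 60 CPM with sgNPM1A, and the log2 fold-change was -0.31 (SE 0.09, adjusted p = 0.0199, edgeR), and ZFAS1 had 0.08. Neither neighbour reached the size threshold of a call. PRSS12, a secreted serine protease gene on the strand opposite to SNHG8, was called higher with a log2 fold-change of 0.48 (SE 0.12, adjusted p = 0.0121, edgeR), from 9.08 and 9.49 CPM to 12.3 and 13.5 CPM, while SNHG8 had 0.19. SLAMF8, which overlaps SNHG28, was also called higher (1.35, adjusted p = 0.0225, edgeR), on 8 to 35 counts in a library. So was DIPK1B, which overlaps SNHG7 (0.33, adjusted p = 0.0279, edgeR), while SNHG7 had -0.12. RPS2, which encodes a protein of the small ribosomal subunit, starts 54 bases from SNHG9 and had 2750.8 and 3010.8 CPM with sgNeg and 3211.8 and 3088.1 CPM with sgNPM1A (log2 fold-change 0.13, SE 0.07, adjusted p = 0.228, edgeR).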
